A study of Mus musculus with 9 samples.

Results

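The genes described here are the HMGA chromatin proteins and the oncofetal RNA binders linked to them. The members were the 7 rows of the deposited gene table whose identifier was Hmga1, Hmga2, Lin28a, Lin28b, Igf2bp1, Igf2bp2 or Igf2bp3, and all 7 were found among 23361 genes. RNA came from mouse skin cells that had been sorted by flow cytometry and carry the label of melanocyte stem cells, the follicle-resident reserve from which hair pigment cells are made. There were 3 groups of 3 libraries, Quiescent, Active and UVB (medium-wave ultraviolet), and all 9 libraries came from skin of animals at postnatal week 10 with the genotype label TBPT. The labels do not spell out the alleles in TBPT, they give depilation or UVB as the treatment of every library alike, and they do not state the gate of the sort, whether animals were pooled or whether replicates came from separate animals. The p-values below reflect the spread among these libraries alone, which may be technical.

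HMGA proteins are small nuclear proteins with AT-hooks that bind the minor groove of AT-rich DNA and bend it, and they are abundant in embryonic cells and in many tumours. LIN28A and LIN28B bind the precursors of let-7, a family of small RNAs that lowers the output of messenger RNAs carrying matches to its seed, and thereby keep let-7 from maturing. The IGF2BP proteins bind messenger RNAs such as that of Igf2 and alter their stability, transport and translation. Members of all 3 families are described let-7 targets, and for most of them levels are high before birth and low in adult tissues.

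In the Active libraries Hmga2 was 2.89-fold and Igf2bp3 2.13-fold higher than in the Quiescent libraries, and Igf2bp2 was 2.85-fold lower. In the UVB libraries Igf2bp3 was 2.34-fold higher than in the Quiescent ones, whereas Hmga2 and Igf2bp2 lay between the other groups and did not pass the test. Hmga1 passed in no comparison. Lin28a, Lin28b and Igf2bp1 were close to undetected in all 9 libraries. No member passed the test between UVB and Active.

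The test was edgeR's quasi-likelihood test, with p-values adjusted by the Benjamini-Hochberg method over 15078 genes and a threshold of 0.05. Of the 7 members 4 had enough fragments for it, and 3 of these passed in Active against Quiescent, 2 of them higher and 1 lower. In that comparison 58.3% of all genes tested passed, 29.1% higher and 29.2% lower, so 3 of 4 is read against a background in which most genes passed. In UVB against Quiescent 1 of 4 passed, where 49.0% of all genes did, 25.8% higher and 23.2% lower. In UVB against Active 0 of 4 passed by edgeR, none had an unadjusted p under 0.05, and DESeq2 and limma also called 0, where 24.0% of all genes passed, 14.8% higher and 9.19% lower. Comparisons with Quiescent depended on the scaling between libraries: with library size alone the median log2 fold change across genes was 0.757 in Active and 0.742 in UVB against Quiescent, and with TMM factors, used throughout, 0.0071 and 0.0205. Hmga2 and Igf2bp3 rose and Igf2bp2 was lower in Active against Quiescent under every scaling tried (TMM, relative log expression, DESeq2's and library size alone), but Igf2bp2 did not pass with library size alone, and the size of each change is relative to that shift.

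The sequence these genes have in common is a match to the let-7 seed, bases 2 to 8 of the mature small RNA. The seed is shown for the 4 let-7 genes whose hairpins had the most fragments in these libraries, as RefSeq gives the mature forms for GRCm38.p6, with the seed in capitals.
let-7b: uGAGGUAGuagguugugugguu
let-7d: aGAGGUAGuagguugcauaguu
let-7g: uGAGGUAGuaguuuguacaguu
let-7i: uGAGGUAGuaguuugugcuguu
All 9 mature let-7 names, miR-98 included, from 11 loci carried the same seed GAGGUAG. The 7 letters that pair with it in a transcript, CTACCTC, were searched on the sense strand of the longest annotated 3′ UTR of each gene in GENCODE M21. They occurred at least once in 9.0% of 20996 3′ UTRs.

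Each of the 7 members held at least 1 match. Hmga2 held 4 in 3014 bases, Lin28b 4 in 4445 bases and Igf2bp1 4 in 6337 bases. Lin28a held 2, and Hmga1, Igf2bp2 and Igf2bp3 held 1 each. Matches were more frequent in long 3′ UTRs, with 8.12% of those about as long as that of Hmga1 and 34.4% of those about as long as that of Igf2bp1 holding 1 or more. Each member was therefore read against 3′ UTRs of 80% to 125% of its length. Of 2415 such 3′ UTRs for Hmga2, 16.1% held a match and 0.124%, which is 3 with Hmga2 included, held at least as many as Hmga2. The share with at least as many matches was 0.297% for Lin28b, 0.332% for Igf2bp1 and 2.07% for Lin28a. A high number of matches for the length was thus not particular to Hmga2. For Igf2bp2 and Igf2bp3 the shares with at least 1 match were 12% and 13.3%, so a single match is not rare at their lengths. A match is a description of letters and not a measured binding site, and small RNAs of this size are not captured by poly(A) libraries.

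The 30 bases ending 1 base after each match are shown for the members whose level could be tested, with the match in capitals, 5′ to 3′ on the transcribed strand. An adenine right after the match, a feature of the stronger microRNA sites that have been described, followed the match in Igf2bp2, in Igf2bp3 and in the first site of Hmga2.
Hmga1: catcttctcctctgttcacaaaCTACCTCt
Hmga2 site 1: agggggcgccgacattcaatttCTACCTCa
Hmga2 site 2: caataatccccactcctcaataCTACCTCt
Hmga2 site 3: ggacttcctgatttgcaaggaaCTACCTCc
Hmga2 site 4: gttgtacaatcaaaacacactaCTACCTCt
Igf2bp2: gagaaaaacacacaaataaaagCTACCTCa
Igf2bp3: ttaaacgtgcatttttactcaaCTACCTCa
In mm10 the Hmga1 stretch lies at chr17:27563270-27563299 on the plus strand. The 4 Hmga2 stretches lie on the minus strand at chr10:120364224-120364253, chr10:120362987-120363016, chr10:120362549-120362578 and chr10:120361691-120361720. The Igf2bp2 stretch lies at chr16:22059473-22059502 and the Igf2bp3 stretch at chr6:49086787-49086816, both on the minus strand. All 7 lie in 3′ UTR within a single exon.

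**Figure D1:**
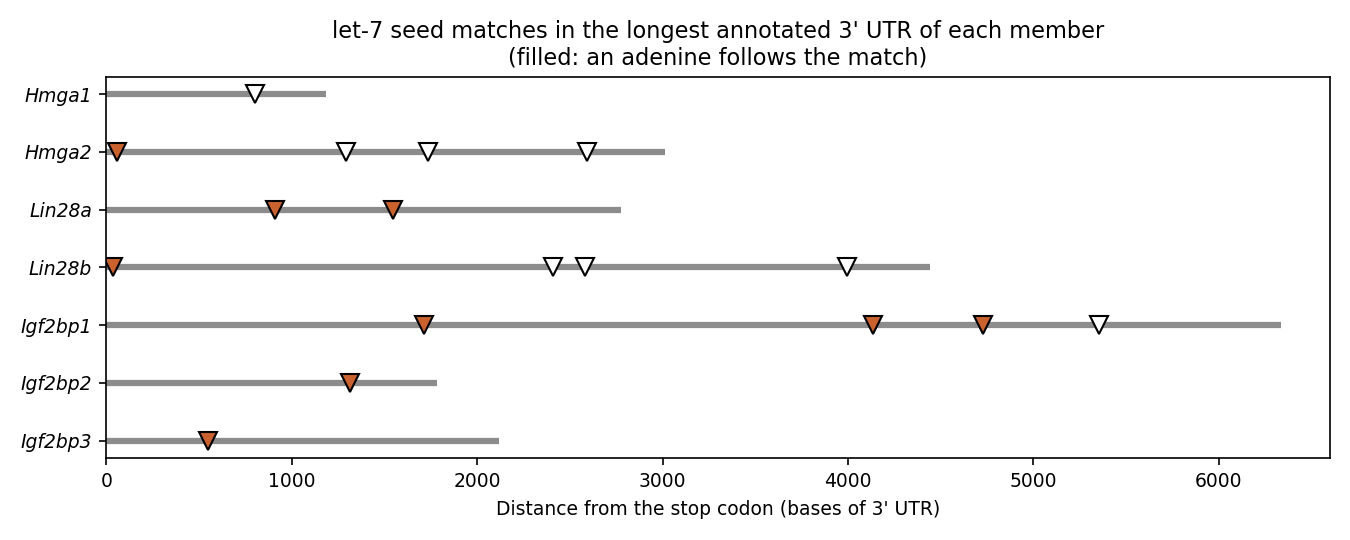
Positions of let-7 seed matches along the longest annotated 3′ UTR of the 7 members, in bases from the stop codon; grey lines show the length of the 3′ UTR and triangles the matches, filled where an adenine follows. Hmga2, Lin28b and Igf2bp1 hold 4 matches each, Lin28a 2 and the other members 1 each.

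Library totals ran from 21045070 to 35131778 fragments assigned to genes. The collagen genes Col1a1, Col1a2 and Col3a1, made in bulk by dermal fibroblasts, took 23.2% to 27.7% of fragments in Quiescent, 0.549% to 0.698% in Active and 2.45% to 3.49% in UVB. Over 10 fibroblast markers the summed level was 341947 to 463714 CPM in Quiescent, 5617 to 7062 in Active and 24211 to 36641 in UVB (CPM are fragments relative to the library total, here after TMM scaling). Over 10 markers of the pigment lineage, Sox10, Mitf, Tyr and Dct among them, it was 87.5 to 228 CPM in Quiescent, 7904 to 12767 in Active and 885 to 1129 in UVB. The summed level was thus lowest in Quiescent, but not each marker was: Mitf stood at 47.3 to 64.0 CPM in Quiescent and at most 38.1 in UVB. Mlana and Ednrb overlapped between those groups, and Ednrb reached 107 CPM in Quiescent replicate 2 and at most 92.2 in UVB. Xist, which is made from an inactive X chromosome, had 23353 to 30356 fragments in the UVB libraries and 4 to 12 in the others, and 4 genes of the Y chromosome (Uty, Kdm5d, Ddx3y and Eif2s3y) summed to 0 to 2 fragments in UVB and 4106 to 5591 in the others. UVB and that difference between libraries cannot be told apart in any comparison with UVB. In bulk RNA, fewer cells of a type and less RNA per cell cannot be told apart either. The part of cell makeup in the members' changes was not tested.

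Levels between genes are compared as the authors' FPKM, fragments scaled to transcript length and library total, because that scale allows for length. Hmga1 was the highest member in each group, with 4.85 ± 3.14 FPKM in Quiescent, 4.94 ± 1.51 in Active and 3.79 ± 1 in UVB (SD, n = 3 libraries per group, here and below). The authors' counting divided fragments of Hmga1 in 9 of 9 libraries, so its level and this rank are uncertain. In Quiescent the order after Hmga1 was Igf2bp2 at 1.2 ± 0.152, Hmga2 at 0.712 ± 0.0918 and Igf2bp3 at 0.248 ± 0.0392 FPKM, and no neighbours in that order overlapped in range. In Active Hmga2 came second at 2.05 ± 1.08 FPKM, followed by Igf2bp3 at 0.525 ± 0.0546 and Igf2bp2 at 0.415 ± 0.299, and among these neighbours the ranges of Igf2bp3 and Igf2bp2 overlapped. In UVB Hmga2 stood at 1.25 ± 0.253, Igf2bp2 at 0.652 ± 0.114 and Igf2bp3 at 0.575 ± 0.16 FPKM, again with overlapping ranges of the last pair and no overlap above it. All of these are low to middling levels among all 23361 genes, undetected ones included. Across the members with fragments enough for a test, group means lay between the 38.7th and the 63rd percentile. On that scale Lin28b in UVB, with 2 fragments in the group, already stood at percentile 22.2.

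**Figure D2:**
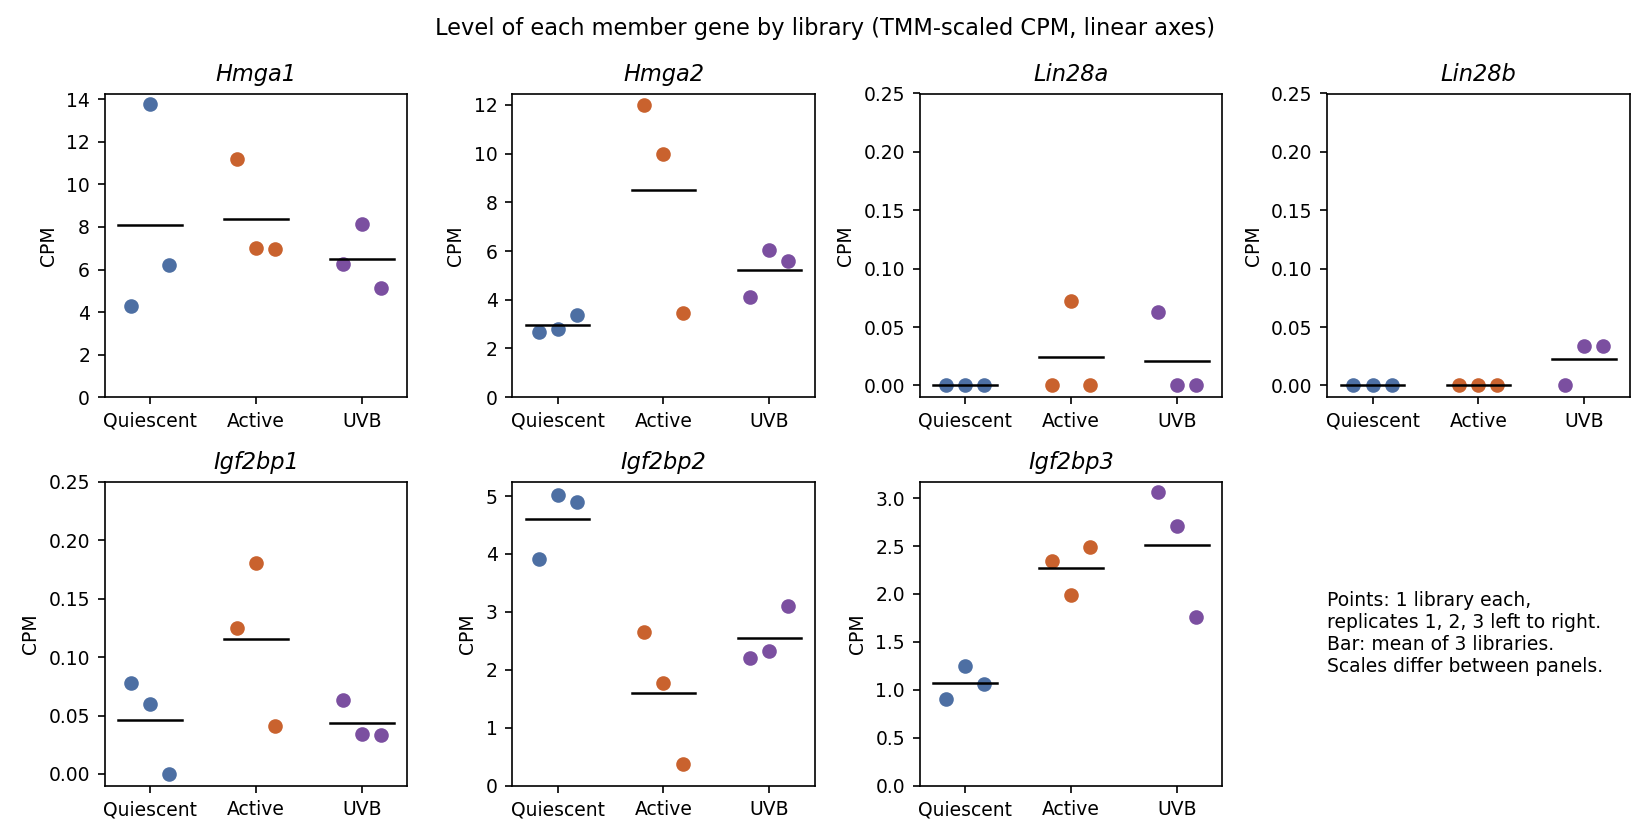
Level of the 7 members in each library, as TMM-scaled CPM on linear axes whose ranges differ between panels; points are libraries in the order of replicate 1 to 3 and bars the mean of 3. Hmga2 is higher in Active replicates 1 and 2 than elsewhere, Igf2bp2 is higher in Quiescent than in the other groups, Igf2bp3 is lower in Quiescent than in the other groups, and Lin28a, Lin28b and Igf2bp1 stay at or below 0.181 CPM.

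Hmga2 encodes the AT-hook protein of embryonic and stem cells. Its gene lies at chr10:120361275-120476469 on the minus strand. In CPM it stood at 2.66, 2.8 and 3.37 in Quiescent replicates 1 to 3, 12, 10 and 3.47 in Active, then 4.1, 6.03 and 5.57 in UVB. Active replicate 3 stood just above the highest Quiescent library, while the other Active libraries were well above it, and all UVB libraries lay above all Quiescent ones.

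Hmga2 rose in Active against Quiescent, by 1.53 on the log2 scale (SE 0.42, 95% interval 0.58 to 2.48, adjusted p = 0.0122 by edgeR with Benjamini-Hochberg adjustment over 15078 genes). In UVB against Quiescent the log2 fold change was 0.83 (95% interval -0.11 to 1.78, adjusted p = 0.129), which did not pass. The difference between UVB and Active, -0.70 (95% interval -1.62 to 0.22, adjusted p = 0.242), did not pass either, so a smaller Hmga2 level in UVB than in Active was not shown. Both comparisons passed in 1 of 9 fits with a library left out, the fit without Active replicate 3. There UVB against Active was -1.11 (adjusted p = 0.0269) and UVB against Quiescent 0.816 (adjusted p = 0.0233). Active replicate 3 is not part of UVB against Quiescent and enters that comparison only through the fit shared by all groups. With other libraries left out the adjusted p of UVB against Quiescent reached 0.268. That comparison also passed with only its 2 groups in the fit (0.843, adjusted p = 0.0431, edgeR) and with scaling by library size alone (1.56, adjusted p = 0.0106). Active replicate 3 had the lowest sums of its group for several lists. Among them were keratinocyte (683 CPM, against 1180 at the highest), myeloid (28.1 against 71.7) and cell cycle markers (1629 against 2275). It had the highest sums for Schwann cell (1065 CPM, against 746 at the lowest) and muscle markers (117 against 73.2). The part of these in its Hmga2 level was not tested.

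A pseudogene row named Hmga2-ps1 was counted apart from Hmga2. RefSeq places it at chr1:176834624-176836133, inside the gene Sdccag8, and of the short GENCODE pseudogene there 17.9% of the 50-base stretches also occur in Hmga2 transcripts. In CPM its level was 5.71, 11.3 and 5.85 in Quiescent, 5.58, 7 and 4.01 in Active, then 7.85, 5.03 and 9.49 in UVB, with overlapping groups. The fragment numbers of Hmga2 and Hmga2-ps1 were whole in 9 of 9 libraries, so no divided fragment is visible in either row. When both rows were summed before the fit, a setting added after the data were seen, the Active against Quiescent change was 0.412 (adjusted p = 0.322) and no longer passed. Sdccag8 itself fell in Active (log2 -0.88, adjusted p = 0.00266, edgeR) and in UVB (log2 -0.49, adjusted p = 0.0462) against Quiescent. The log2 changes of Hmga2-ps1 were -0.46 (adjusted p = 0.299) and -0.03 (adjusted p = 0.952), and neither passed. The part of Sdccag8 in the Hmga2-ps1 row was not tested.

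Hmga1 encodes the related AT-hook protein that is found in most dividing cells. Its gene lies at chr17:27556497-27563674 on the plus strand. In CPM it stood at 4.3, 13.8 and 6.2 in Quiescent, 11.2, 7 and 6.95 in Active, then 6.27, 8.12 and 5.13 in UVB. The groups overlapped, and Quiescent replicate 2 was the highest of all libraries. The log2 fold changes were 0.0533 in Active against Quiescent (95% interval -0.90 to 1.01, adjusted p = 0.923), -0.31 in UVB against Quiescent (-1.27 to 0.65, adjusted p = 0.568) and -0.37 in UVB against Active (-1.32 to 0.59, adjusted p = 0.563). These intervals reach from -1.32 to 1.01 log2 units, and the sign of the changes against Quiescent turned when single libraries were left out. Without Quiescent replicate 2 the change in Active against Quiescent was 0.681 (adjusted p = 0.114, edgeR), which did not pass. That library had the highest summed myeloid markers of its group (1490 CPM, against 140 at the lowest). It had the lowest summed fibroblast markers (341947 against 463714 at the highest). Their part in its Hmga1 level was not tested.

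Hmga1 also shares 102 exon bases with AI413582 on the opposite strand, a gene that fell in Active (log2 -1.17, adjusted p = 0.00522) and UVB (-1.13, adjusted p = 0.00788) against Quiescent. The estimated fragment numbers of Hmga1 were fractional in 9 of 9 libraries, such as 105.2 in Quiescent replicate 3, so the authors' counting divided fragments, and the level and direction of Hmga1 are uncertain for that reason. The other 6 members had whole numbers in 9 of 9 libraries.

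Igf2bp2 encodes the IGF2BP paralogue that many adult tissues keep. Its gene lies at chr16:22059009-22163299 on the minus strand. In CPM it stood at 3.91, 5.01 and 4.9 in Quiescent, 2.65, 1.78 and 0.368 in Active, then 2.21, 2.33 and 3.11 in UVB. All Quiescent libraries lay above all others, and Active replicate 3, with 9 fragments, was the lowest of all.

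Igf2bp2 fell by 1.51 on the log2 scale in Active against Quiescent (SE 0.56, 95% interval -2.78 to -0.25, adjusted p = 0.0431, edgeR). This call stood close to the threshold. It was lost, with the direction kept, when Quiescent replicate 1 (adjusted p = 0.0616), 2 (0.0882) or 3 (0.0823), Active replicate 2 (0.0898) or UVB replicate 1 (0.0607), 2 (0.0572) or 3 (0.0525) was left out, at log2 values of -1.62 to -1.45. It was also lost with only the 2 groups compared in the fit (-1.50, adjusted p = 0.0784) and with scaling by library size alone (-0.747, adjusted p = 0.259). In UVB against Quiescent the log2 fold change was -0.85 (95% interval -2.09 to 0.39, adjusted p = 0.227). It passed in 1 of 9 fits with a library left out, the fit without Active replicate 3 (-0.871, adjusted p = 0.0337). That library is not part of UVB against Quiescent and enters it only through the fit shared by all groups. With only the 2 groups compared in the fit, UVB against Quiescent also passed (-0.848, adjusted p = 0.0404, edgeR). In UVB against Active the log2 fold change of Igf2bp2 was 0.66 (95% interval -0.59 to 1.91, adjusted p = 0.419). Markers of fibroblasts, blood vessels and muscle were also highest in Quiescent, and all 10, all 7 and all 6 of them fell in Active against Quiescent. The summed endothelial markers went from 353 to 504 CPM in Quiescent down to 21.3 to 26.5 in Active, and the muscle markers from 699 to 962 down to 73.2 to 117. Their part in the fall of Igf2bp2 was not tested.

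Igf2bp3 encodes an IGF2BP paralogue described as oncofetal. Its gene lies at chr6:49085223-49214957 on the minus strand. In CPM it stood at 0.899, 1.25 and 1.06 in Quiescent, 2.34, 1.99 and 2.49 in Active, then 3.06, 2.71 and 1.76 in UVB. Each Active and UVB library lay above each Quiescent one, and Active and UVB overlapped.

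Igf2bp3 rose by 1.09 on the log2 scale in Active against Quiescent (SE 0.31, 95% interval 0.38 to 1.80, adjusted p = 0.0149, edgeR) and by 1.23 in UVB against Quiescent (SE 0.31, 95% interval 0.52 to 1.94, adjusted p = 0.0106). Both changes are against the same 3 Quiescent libraries, so they are not independent of each other. UVB and Active differed by 0.14 (95% interval -0.54 to 0.82, adjusted p = 0.766), an interval that allows a difference of up to 0.82 log2 units. In UVB 5 of 5 tested mast cell markers rose against Quiescent (summed 2.78 to 8.99 CPM in Quiescent and 56.7 to 112 in UVB). So did 5 of 6 T cell markers (1.30 to 21.3 and 17.9 to 20.8 CPM). In Active against Quiescent 0 of 5 tested mast cell markers passed, and of 6 T cell markers 1 rose and 1 fell. Of the pigment lineage markers 9 of 10 rose in Active and 7 of 10 in UVB, and of the cell cycle markers 10 of 10 in both. Of these markers Fcer1a, a mast cell gene, was at 0 in 3 of 3 Quiescent libraries. Their part in the rise of Igf2bp3 was not tested. The values of Igf2bp3 rest on 18 to 23 fragments per library in Quiescent, 55 to 75 in Active and 52 to 97 in UVB. Over 1529 exon bases Igf2bp3 overlaps Malsu1, a gene on the opposite strand with 14.9 to 17.8 CPM in Quiescent, and the sources used here do not say whether counting used the strand. The log2 change of Malsu1 in Active against Quiescent was -0.13 (adjusted p = 0.552), and in UVB against Quiescent it was -0.81 (adjusted p = 0.00520). The part of Malsu1 in the Igf2bp3 counts was not tested.

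**Figure D3:**
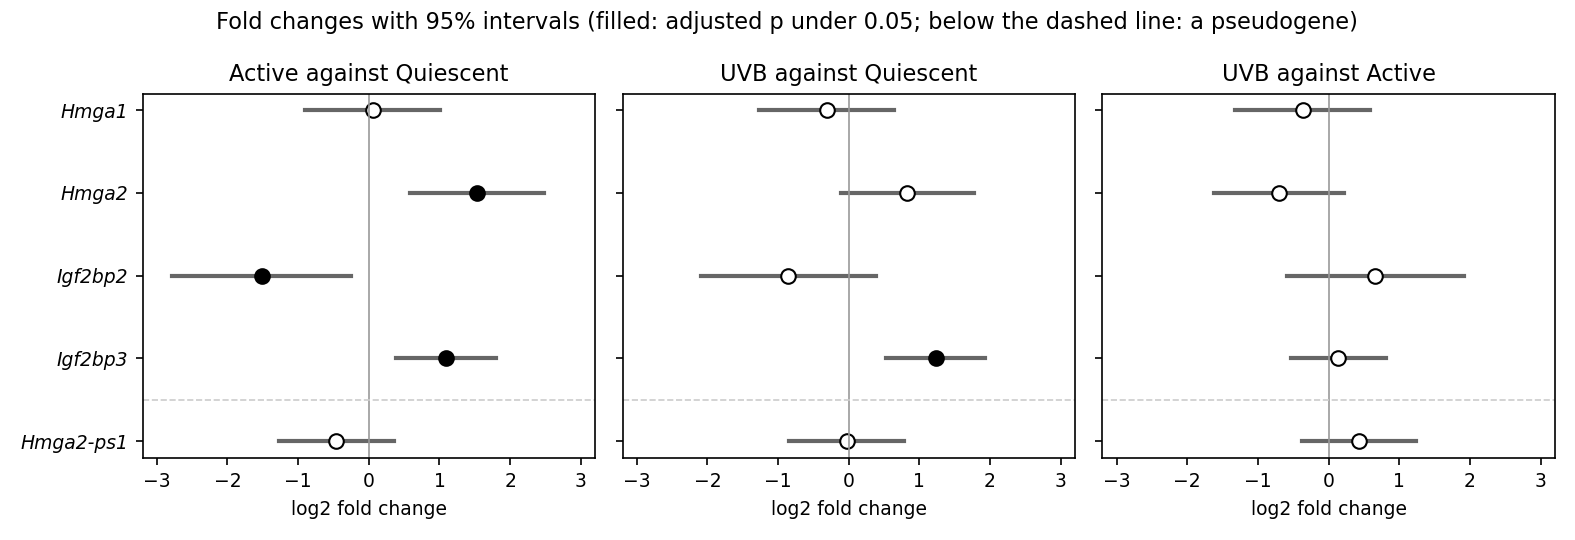
Log2 fold changes of the 4 tested members and of the pseudogene row Hmga2-ps1, in 3 comparisons, with 95% intervals from edgeR; filled points have an adjusted p under 0.05. Hmga2 at 1.53, Igf2bp2 at -1.51 and Igf2bp3 at 1.09 are filled in Active against Quiescent, Igf2bp3 at 1.23 is the filled member in UVB against Quiescent, and none is filled in UVB against Active.

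The balance between the IGF2BP paralogues was also followed. The FPKM ratio of Igf2bp3 to Igf2bp2 was 0.205, 0.223 and 0.193 in Quiescent, 0.787, 1 and 6.05 in Active, and 1.24, 1.04 and 0.504 in UVB. Igf2bp2 was thus at least 4 times as high as Igf2bp3 in each Quiescent library, and the paralogues were within a factor of 2 of each other in 5 of the 6 other libraries, Active replicate 3 being the exception. On the log2 scale the mean ratio was higher than in Quiescent by 3.02 in Active and by 2.06 in UVB, each with an exact two-sided permutation p of 0.1, the smallest that 3 libraries against 3 can give, and 0.15 after Benjamini-Hochberg adjustment over 3 comparisons. Without Active replicate 3, where Igf2bp2 had 9 fragments, the difference in Active was 2.10, a setting added after the data were seen. UVB and Active differed by -0.961 (exact permutation p = 0.6), and by -0.0384 without that library. No stretch of 50 bases is shared between Igf2bp2 and Igf2bp3 transcripts, and their fragment numbers were whole in 9 of 9 libraries.

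**Figure D4:**
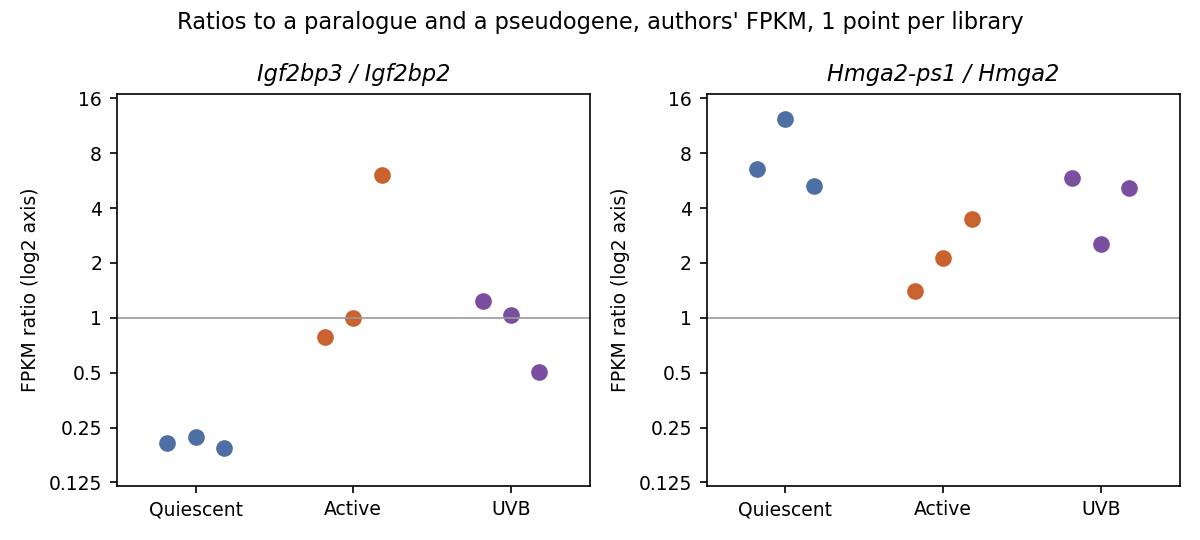
FPKM ratios on a log2 axis for Igf2bp3 to Igf2bp2 and Hmga2-ps1 to Hmga2, 1 point per library. The Igf2bp3 to Igf2bp2 ratio is 0.193 to 0.223 in Quiescent and 0.504 to 6.05 elsewhere.

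Lin28a and Lin28b, the let-7 blockers, and Igf2bp1, the third IGF2BP paralogue, had too few fragments to be tested. Lin28a lies at chr4:134003330-134018841, Lin28b at chr10:45376620-45486395 and Igf2bp1 at chr11:95957163-96005940, all on the minus strand. Lin28a had 2 fragments in Active replicate 2, 2 in UVB replicate 1 and 0 in the other 7 libraries. Lin28b had 1 fragment in each of UVB replicates 2 and 3 and 0 in the others.

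A count of 0 over the 83240494 fragments of the Quiescent group allows up to 0.0360 CPM of the unscaled total for Lin28a and Lin28b there, and 0 over the 70162005 of the Active group up to 0.0428 for Lin28b (3 fragments per group, counting error only). Igf2bp1 had 2, 1 and 0 fragments in Quiescent, 4, 5 and 1 in Active and 2, 1 and 1 in UVB. Its highest library, Active replicate 2, stood at 0.181 CPM. A difference between groups was not tested for these genes, which had too few fragments at this depth.

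Other tested genes with the closest pattern over the 9 libraries were found by the root mean square difference of centred log2(CPM + 0.5), among 13332 genes. For Hmga2 they were Trp53rk at 0.257, Rmnd1 at 0.317 and Zbed4 at 0.319, where the deviation of Hmga2 about its own mean was 0.673. For Igf2bp3 they were Pvr at 0.0954, Sesn2 at 0.116 and Fhl3 at 0.124, against its own 0.453. For Igf2bp2 they were Znf41-ps at 0.296, Dclk1 at 0.309 and Il11 at 0.343, against 0.764, and for Hmga1 they were Zfp773 at 0.242, Rsg1 at 0.265 and Tcaim at 0.270, against 0.464. Among the members themselves Hmga1 and Igf2bp3 lay at 0.580 from each other and Hmga2 and Igf2bp3 at 0.590, and Igf2bp2 lay farthest from Igf2bp3, at 1.12. All of these distances were larger than the 0.453 of Igf2bp3 about its own mean, so its pattern was not close to that of another member.

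The genes around the members were described by lists, and the counts here and in the paragraphs that follow are read against all genes tested. In Active against Quiescent 29.1% of all genes rose and 29.2% fell. In UVB against Quiescent 25.8% rose and 23.2% fell, and in UVB against Active 14.8% rose and 9.19% fell. Of 15 tested let-7 processing genes and LIN28 co-factors, 3 rose and 3 fell in Active against Quiescent (median log2 fold change 0.173, all genes 0.0071), and 5 rose and 0 fell in UVB against Quiescent (0.231, all genes 0.0205). Xpo5, which exports microRNA precursors from the nucleus, rose 1.56-fold in Active (adjusted p = 0.00184, edgeR) and 1.50-fold in UVB (adjusted p = 0.00424). Dis3l2, the nuclease that degrades uridylated let-7 precursors, rose 1.61-fold in Active, where the Argonaute partners Tnrc6a and Tnrc6b fell 1.39-fold and 1.51-fold. Dicer1, which cuts precursors to mature microRNAs, rose 1.34-fold in UVB. Zcchc11, a uridyl transferase recruited by LIN28A, rose 1.27-fold in UVB against Quiescent and 1.42-fold against Active, where 4 of the 15 rose and 0 fell (median 0.172, all genes 0.0136). Trim71, itself a let-7 target, reached at most 0.586 CPM and was not tested.

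Of 20 described let-7 targets outside the members, 9 rose and 4 fell in Active against Quiescent (median 0.248), 6 rose and 2 fell in UVB against Quiescent (0.333), and 3 rose and 2 fell in UVB against Active (-0.0841). Mycn, a growth-promoting transcription factor, rose 21-fold in Active and 16.9-fold in UVB against Quiescent, and the cell cycle gene Ccnd1 10.9-fold and 9.43-fold. E2f2, a transcription factor of S phase, rose 7.36-fold and 6.91-fold, while the receptor gene Tgfbr1 fell 2.33-fold and 1.52-fold. Like the 7 members, 14 of the 20 hold a CTACCTC match in the longest 3′ UTR, but Mycn and Ccnd1 hold 0. Of the 9 that rose in Active 5 hold a match, and of the 4 that fell 4 do. The let-7 hairpin rows themselves held 3, 18 and 36 fragments in Quiescent, 1, 0 and 0 in Active and 2, 0 and 0 in UVB, in sum over 12 rows, and these do not measure mature let-7.

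Of 8 described IGF2BP-bound transcripts, 3 rose and 3 fell in Active against Quiescent (median -0.117), 4 rose and 2 fell in UVB against Quiescent (0.314), and 3 rose and 0 fell in UVB against Active (-0.00558). Igf2, the fetal growth factor for which the IGF2BP proteins are named, fell 10.1-fold in Active and 3.04-fold in UVB against Quiescent, from 7.43 ± 2.1 CPM. H19, its imprinted neighbour, fell 9.1-fold in Active, whereas the adhesion receptor gene Cd44 rose 4.52-fold in Active and 3.43-fold in UVB. Mapt, which encodes the microtubule protein tau, rose 26.6-fold and 21.7-fold. Igf2 and H19 also stand in the list of 10 imprinted fetal growth genes, where 2 rose and 6 fell in Active against Quiescent (median -1.59), 3 rose and 3 fell in UVB against Quiescent (0.0119), and 3 rose and 0 fell in UVB against Active (1.04). In that list Grb10, which restrains insulin and IGF signalling, rose 1.84-fold and 1.54-fold, and Plagl1, a transcription factor of the network, fell 3.73-fold and 5.09-fold, in Active and UVB.

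Some genes of other high-mobility-group families also rose in Active, where of the HMGA genes Hmga2 passed and Hmga1 did not. Of 9 tested HMG-box and HMGN genes, 6 rose and 0 fell in Active against Quiescent (median 0.673), 3 rose and 0 fell in UVB against Quiescent (0.226), and 0 rose and 1 fell, Hmgn1 by 1.40-fold, in UVB against Active (-0.340). Hmgb2 and Hmgb3, which bend DNA and are high in dividing cells, rose 11.8-fold and 17.4-fold in Active and 7.98-fold and 13.8-fold in UVB. Of 12 genes described downstream of HMGA proteins, 4 rose and 5 fell in Active against Quiescent (median 0.0545), 4 rose and 3 fell in UVB against Quiescent (-0.0527), and 3 rose and 0 fell in UVB against Active (0.115). The cyclin genes Ccna2 and Ccnb2 rose 21-fold and 37.1-fold in Active, and the mesenchymal transcription factor genes Twist1 and Snai1 fell 41.2-fold and 12.3-fold. Of the cell cycle markers, 10 of 10 rose in Active (median 4.99) and 10 of 10 in UVB (4.69) against Quiescent, and 0 passed between UVB and Active by edgeR (-0.375), where 1 had an unadjusted p under 0.05. Their summed level was 127 to 136 CPM in Quiescent, 1629 to 2275 in Active and 894 to 2478 in UVB, and the part of dividing cells in the members' changes was not tested.

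**Figure D5:**
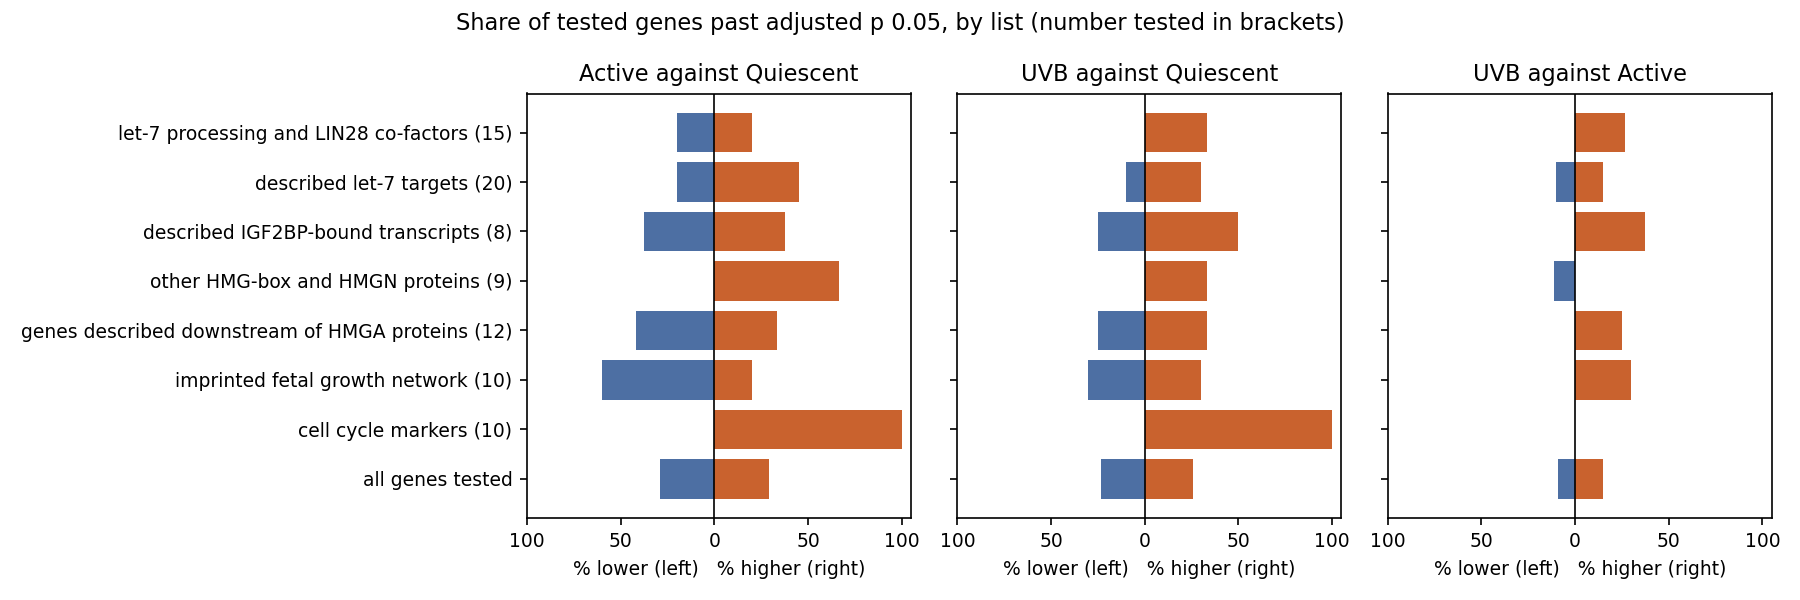
Share of the tested genes of each list that passed an adjusted p of 0.05, higher to the right and lower to the left, in 3 comparisons, with the number tested in brackets and all genes tested in the bottom bar. The cell cycle bar reaches 100% higher in both comparisons with Quiescent, and the bars of let-7 processing, IGF2BP-bound and HMGA-related genes hold calls in both directions in Active against Quiescent.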

How the data were processed

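The members and all gene lists were chosen with earlier results of these data known. Libraries were made from poly(A) RNA with a directional kit, per the labels' protocols. The submitters' processing notes name cutadapt 1.8, TopHat2 2.0.13, Cuffdiff 2.2.1 and mm10. The annotation and the strand setting were not given in the sources used here. Per the file headers, the deposited table holds estimated counts (fragments per gene before scaling) and the authors' FPKM per gene and library. Of its 210249 estimated counts, 1.08% were not whole within 1e-06, and 18 values in 7 genes, none of them members, were marked as failed. Cuffdiff divides fragments between similar genes, which touches Hmga1.

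The estimated counts, rounded, went into edgeR 4.0.16 (quasi-likelihood test, TMM, 1 fit of 9 libraries, R 4.3.3). The function filterByExpr removed 8283 genes and left 15078, with 4 of the 7 members. p-values are two-sided, Benjamini-Hochberg adjusted over those genes, with a threshold of 0.05. Levels are CPM, and the replicate coefficient of variation was 0.28. The FPKM ratio was tested by exact permutation. Alternatives were other scaling factors, DESeq2 1.42.0, limma 3.58.1 on log2(FPKM + 1) and log2(FPKM + 0.1), other filters, only the groups compared, a replicate block and leaving out each library. Seed matches come from GENCODE M21 and RefSeq. From each list the text names up to 4 genes with the smallest adjusted p per comparison, and 3 genes closest to each tested member. Sdccag8, Malsu1, AI413582 and Hmga2-ps1 were added after their values were seen. A result bearing on Hmga1 is not reported here. The rows for 4 listed genes stand under older symbols.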

Additional observations from a re-analysis of the deposited data

How the results depend on the processing

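Hmga2 and Igf2bp3 passed in Active against Quiescent, and Igf2bp3 in UVB against Quiescent, under all 18 settings other than the summed rows, with adjusted p of 5.98e-04 to 0.0488, 7.27e-04 to 0.0490 and 6.16e-04 to 0.0469. Igf2bp2 passed in Active against Quiescent under 8 of these 18 (log2 -2.08 to -0.655). With only the groups compared in the fit its adjusted p was 0.0784. Members past the threshold in UVB against Quiescent numbered 1 as reported, 2 with library size alone (Hmga2 added, log2 1.56), 3 with only the groups compared (Hmga2 and Igf2bp2 added) and 1 to 3 when each library was left out, the 3 without Active replicate 3. In UVB against Active they numbered 0, and 0 to 1 when each library was left out. The sign of Hmga1 turned in Active against Quiescent without Quiescent replicate 1 or 3 or Active replicate 1 (-0.253 to 0.681 over libraries left out), and in UVB against Quiescent with library size alone (0.392) and without Quiescent replicate 2 (-0.621 to 0.313). Igf2bp3 in UVB against Active ran from -0.0294 to 0.340 when each library was left out. All genes past the threshold in UVB against Active numbered 3612, and 1806, 1452 and 1938 without Active replicate 1, Active replicate 2 and UVB replicate 1; the cause was not tested. With library size alone 8651 genes were higher and 2206 lower in Active against Quiescent, and 8746 and 1246 in UVB against Quiescent.

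With the replicate number as a block, 2, 1 and 0 members passed in the 3 comparisons, Igf2bp2 being lost in Active against Quiescent (log2 -1.62, adjusted p = 0.0673), and no other member's call changed. Deviations of same-numbered libraries correlated at -0.184 to 0.202 over 9 pairs, and 4 of 9 libraries matched their own number best, so the numbers were not taken to pair libraries. Depth limits Lin28a, Lin28b and Igf2bp1, which had 4, 2 and 17 fragments in all.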
